A study of Homo sapiens with 12 samples.

Results

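A group of 10 genes of iron storage, iron uptake, iron sensing and heme breakdown were followed in ribosome profiling (ribo-seq) data, in which the short RNA fragments covered by ribosomes (footprints) are sequenced and counted per gene. The genes were chosen by symbol, and all 10 of them (FTH1, FTL, NCOA4, TFRC, SLC11A2, ACO1, IREB2, FBXL5, HMOX1 and HMOX2) were among the 12357 genes of the count table. The cells were 3 established EBV-transformed lymphoblastoid B cell lines, wild type by their label (GM18505, GM19193 and GM19204), each as a control culture given water and a culture given sodium arsenite, an oxidative stressor, for 30 min. All 6 samples were sequenced as 2 libraries each, T with and U without a CRISPR step that removes ribosomal RNA, and these technical replicates were summed, so that the cell line is the replicate (n = 3 per condition). Every library also held 16 spike-in oligomers of known amount. With 1 culture per line and condition, the p-values rest on these 3 lines, with the spread between lines estimated jointly over genes. Very small p-values below lean on that shared estimate and overstate what 3 lines alone can show.

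Iron in the cell is stored inside ferritin, a shell built of heavy (FTH1) and light (FTL) chains, and enters mainly through the transferrin receptor (TFRC). When iron is scarce, the iron regulatory proteins (ACO1, also called IRP1, and IREB2, also called IRP2) bind a small RNA hairpin, the iron-responsive element (IRE). Bound to the 5′ UTR of a ferritin mRNA they block its translation, and bound to the 3′ UTR of TFRC mRNA they protect that mRNA from decay. Heme oxygenases cut heme open and release its iron, and HMOX1 is a gene well known to be induced by arsenite through NRF2, against the repressor BACH1. Acute arsenite also lowers translation of most mRNAs through phosphorylation of eIF2α.

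The IRE hairpins are shown because FTH1 and FTL carry one in the 5′ UTR and TFRC several in the 3′ UTR. Whether they bear on the footprint changes given below was not tested. Transcripts of GENCODE release 44 on GRCh38 were searched for a C, 5 bases, CAGTGN with a last base other than G, and 5 bases that pair with the first 5 (G with T allowed), on the transcript's own strand. In the sequences, the capitals mark the unpaired C and the 6 loop bases.
FTH1, 5′ UTR, chr11:61967573-61967602, minus strand: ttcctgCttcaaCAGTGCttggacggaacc
FTL, 5′ UTR, chr19:48965335-48965364, plus strand: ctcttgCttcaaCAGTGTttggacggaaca
TFRC, 3′ UTR, chr3:196050978-196051007, minus strand: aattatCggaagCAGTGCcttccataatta
TFRC, 3′ UTR, chr3:196050574-196050603, minus strand: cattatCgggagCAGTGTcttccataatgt
TFRC, 3′ UTR, chr3:196050509-196050538, minus strand: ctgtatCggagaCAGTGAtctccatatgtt
TFRC, 3′ UTR, chr3:196050462-196050491, minus strand: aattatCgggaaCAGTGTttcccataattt
SLC40A1, 5′ UTR, chr2:189580660-189580689, minus strand: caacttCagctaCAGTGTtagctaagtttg
The hairpin was found in 10 of 12 FTH1 transcripts, in the 1 FTL transcript and, 4 times over, in 26 of 38 TFRC transcripts. SLC40A1, the iron exporter ferroportin, is not among the 10 genes and is shown as another mRNA with a described 5′ UTR element. Of the canonical transcripts of 20046 protein-coding genes, 190 (0.948%) held such a hairpin. These letters were not found in the transcripts of NCOA4, SLC11A2, ACO1, IREB2, FBXL5, HMOX1 or HMOX2, which is a statement on this pattern alone. An IRE that pairs differently would be missed, so none of these genes is shown to lack one.

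Counts in genes ranged from 1979496 to 4112703 in the 6 control libraries and from 637177 to 1730558 in the 6 arsenite libraries. The spike-in scale, which sets samples to equal amounts of the 7 oligomers that had 10 or more reads in all 12 libraries, had a standard error of 0.07 to 0.16 log2 units per sample. On that scale the median gene fell by 1.78 on the log2 scale in the fit over all samples, and the medians within GM19193, GM18505 and GM19204 were -1.30, -1.89 and -2.23. GM19193 thus stood apart with the smallest shift, and 341 genes (2.76%) were higher in both arsenite libraries of GM19193 and lower in both of each other line, against 56 genes for GM18505 and 40 for GM19204. All 8 listed B cell markers were in the table, which keeps genes that were read at least once in all 12 libraries, and 0 of 6 T cell, 0 of 6 monocyte and 0 of 6 erythroid markers were in it. No RNA-seq was analysed here, so a change of footprints cannot be divided into mRNA level and translation. The oligomers were added by weight of the RNA recovered from digested lysate, so the spike-in scale is per amount of that RNA and not per cell. In bulk samples, footprints from fewer cells of a type and fewer footprints in each such cell cannot be told apart.

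Every member but SLC11A2 had fewer footprints under arsenite in every line, but by very different amounts. On the spike-in scale 8 of the 10 genes fell at an adjusted p under 0.05 (edgeR quasi-likelihood test, Benjamini-Hochberg over all genes), where 74.1% of all 12357 genes fell. None of the 10 rose, also at an unadjusted p under 0.05 and with DESeq2, where 1.12% of all genes rose. With limma on unscaled counts none rose either. The median log2 fold change of the 10 genes was -2.11, beside -1.78 over all genes. All 10 were among the 8265 better-read genes (mean count per sample 50 or more). The median of those genes, averaged over lines, was -2.10, close to that of the members. A second fit used TMM normalization, which sets the typical gene to no change and so asks whether a gene moved more or less than the others. There FTH1, FTL and SLC11A2 were higher and TFRC, NCOA4 and HMOX2 were lower, 3 of 10 in each direction, beside 27.8% of all genes called higher and 26.6% called lower. The shares of the members called were near those of all genes in both fits, so the account that follows is of single genes. Where conditions are said not to overlap, the share of all genes without overlap was not counted. With a median gene at -1.78, such a gap is not particular to these genes.

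**Figure D1:**
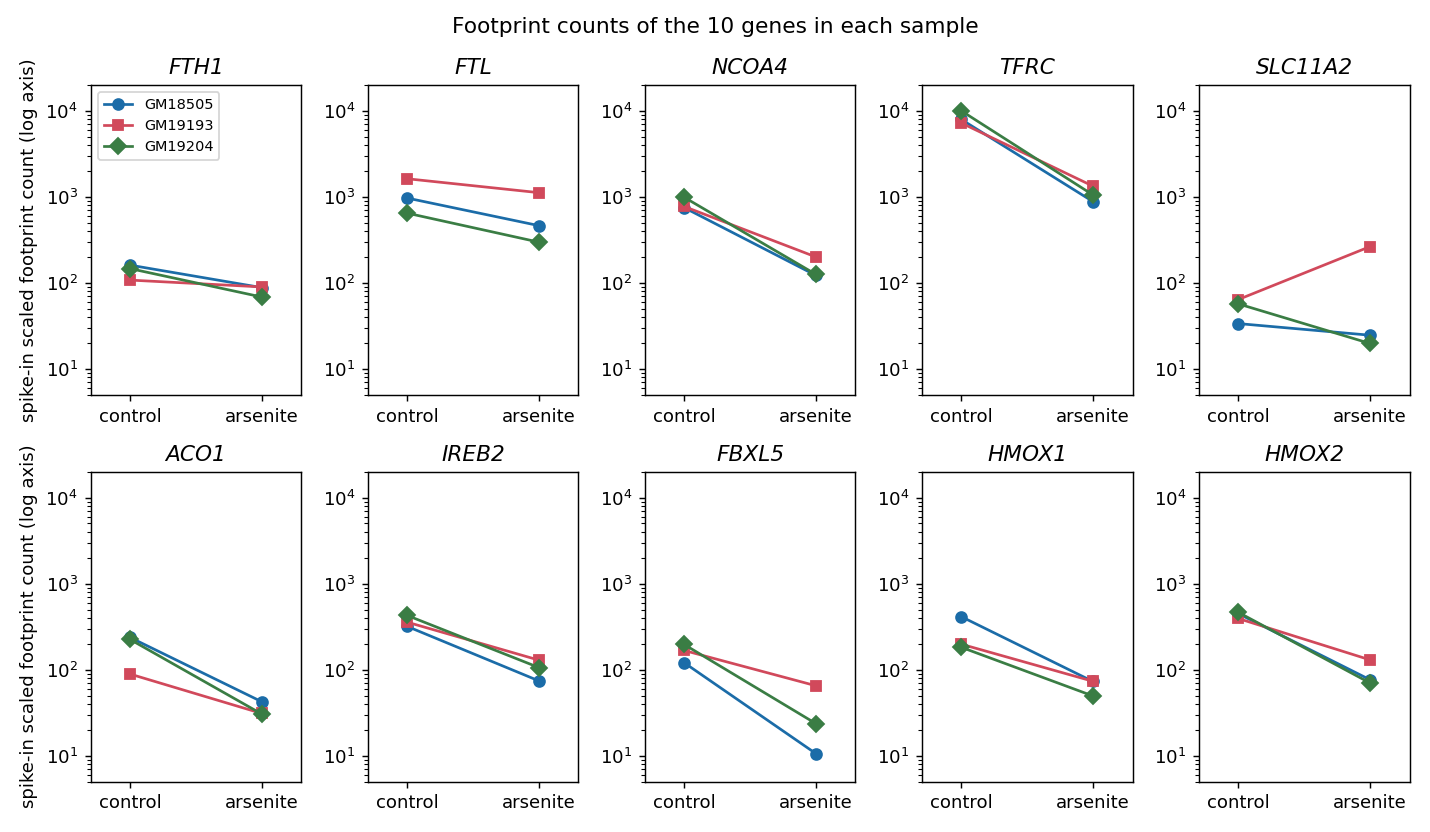
Spike-in scaled footprint counts (log axis) of each of the 10 genes in the control and the arsenite sample of GM18505 (circles), GM19193 (squares) and GM19204 (diamonds), 1 point per sample, T and U libraries summed. TFRC falls steeply in all 3 lines, from 7236 or more to 1333 or less, while FTL samples stay between 298 and 1625 and FTH1 samples between 68.6 and 161, and SLC11A2 climbs in GM19193 alone.

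The ferritin chains kept more of their footprints than most genes. FTH1 (ENSG00000167996.16, GRCh38 chr11:61959718-61967634), the heavy chain with the ferroxidase activity that loads iron, had spike-in scaled counts of 161, 108 and 147 in the controls of GM18505, GM19193 and GM19204 and of 88.2, 89.9 and 68.6 after arsenite. The deposited counts behind them were 191, 91 and 136 and then 75, 87 and 90 reads, and the 2 conditions did not overlap on the scaled values. Arsenite samples thus held 54.8%, 83.2% and 46.7% of the control level, where the counting interval of GM19193 (log2 -0.71 to 0.18, exact 95%) included no change. The fit gave a log2 fold change of -0.75 (SE 0.39), which missed the threshold (adjusted p = 0.073). It passed without GM19193 (-0.98, adjusted p = 0.0012), with DESeq2 (-0.75, adjusted p = 0.042) and with the 12 libraries kept separate (-0.74, adjusted p = 0.0029), and the latter 2 fits each called 9 of the 10 genes as fallen. The fit of 12 libraries counts T and U of 1 culture as separate replicates, so its p-value overstates the replication. Relative to the other genes FTH1 was higher by 1.07 (SE 0.16, adjusted p = 8.7e-04), and the 3 lines lay close together at 1.02, 1.03 and 1.13 above their own median gene. Its fold change on the spike-in scale was above that of 77.2% of all genes and, over the 8265 better-read genes (mean count per sample 50 or more), above 90.0%.

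FTL (ENSG00000087086.15, GRCh38 chr19:48965309-48966879), the light chain that helps to form the iron core, had far more reads. Its spike-in scaled counts were 970, 1625 and 648 in the controls of GM18505, GM19193 and GM19204 and 463, 1120 and 298 after arsenite, so that the conditions overlapped across lines while each line fell to 47.8%, 68.9% and 46.0% of its own control. The order of the lines was the same in both conditions, with GM19193 highest and GM19204 lowest. FTL fell by 0.91 on the log2 scale (SE 0.36, adjusted p = 0.017), a call that was lost without GM18505 (-0.83, adjusted p = 0.39) and without GM19204 (-0.80, adjusted p = 0.15). In the TMM fit it was higher by 0.91 (SE 0.10, adjusted p = 2.0e-04), with 0.82, 0.76 and 1.11 in the single lines. Without the term for cell line, which takes out these standing differences, the log2 values were -0.79 (adjusted p = 0.15) on the spike-in scale and 0.86 (adjusted p = 0.14) relative to the other genes. Together FTH1 and FTL took 213, 286 and 114 CPM (gene counts scaled to the same total in every sample) in the controls and 354, 478 and 205 after arsenite, a larger share in every line.

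NCOA4 (ENSG00000266412.6, GRCh38 chr10:46005088-46030623), the receptor that carries ferritin to the lysosome for breakdown, moved the other way relative to the typical gene. Its spike-in scaled counts were 751, 774 and 990 in the controls and 122, 200 and 126 after arsenite, with no overlap. It fell by 2.51 on the log2 scale (SE 0.38, adjusted p = 4.4e-10) and was lower relative to the other genes (log2 -0.69, SE 0.10, adjusted p = 7.0e-04). The 3 lines gave relative values of -0.73, -0.65 and -0.75. Over the better-read genes the relative value was smaller, at -0.43 (adjusted p = 0.0067). Of the storage genes, the ferritin chains were thus higher and the receptor that removes ferritin lower than the typical gene.

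Counts of the storage genes carry a limit of their own, because the authors kept only reads that map to a single place and ferritin has many processed copies in the genome. Of the 28-base windows of the FTH1 coding sequence, 91.4% (477 of 522) had an exact copy elsewhere in GRCh38, beside 62.7% for FTL and 34.8% for NCOA4. For IREB2 the share was 0.699% and for the other 6 genes 0%. GENCODE lists 25 FTH1, 16 FTL and 4 NCOA4 pseudogenes by name, of which FTLP5 alone was in the table, with 39 counts over all 12 libraries. The levels of FTH1, FTL and NCOA4 are therefore counts over the parts of the gene that can be told apart, and BEST1, which overlaps FTH1 on the opposite strand, had a mean of 2.92 counts per library. Whether such copies bear on the fold changes was not tested.

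**Figure D2:**
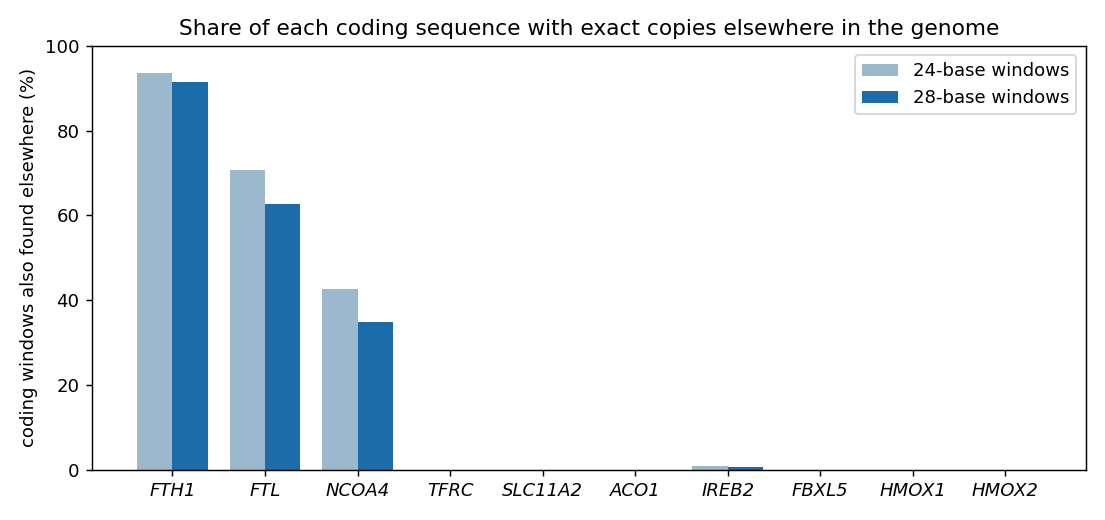
Percent of the coding windows of each gene (24 bases, light bars; 28 bases, dark bars) that also occur, base for base, elsewhere in GRCh38. FTH1 (91.4% at 28 bases), FTL (62.7%) and NCOA4 (34.8%) stand out, and 7 genes are under 1%.

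Of the uptake genes, TFRC lost the most footprints of the 10. TFRC (ENSG00000072274.13, GRCh38 chr3:196012511-196082153), the receptor for iron-loaded transferrin and a gene strongly expressed in dividing lymphoid cells, had 9442, 6099 and 9291 deposited reads in the controls of GM18505, GM19193 and GM19204 and 750, 1291 and 1384 after arsenite. On the spike-in scale the values were 7963, 7236 and 10030 against 882, 1333 and 1054, which left 11.1%, 18.4% and 10.5% of control. The conditions were far apart in every line and in both libraries of each. TFRC fell by 2.96 on the log2 scale (SE 0.39, adjusted p = 1.1e-12). Of all genes 3.88%, and of the better-read genes 5.36%, had a lower fold change. The call held with any 1 line left out, but the size of the adjusted p depended on the line. It was 0.0095 without GM18505, 2.3e-05 without GM19204 and 5.5e-29 without GM19193. Relative to the other genes its log2 fold change was -1.14 (SE 0.09, adjusted p = 7.2e-05), with -1.28, -1.14 and -1.02 in the single lines. Over the better-read genes that value was smaller, at -0.87 (adjusted p = 4.4e-04).

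SLC11A2 (ENSG00000110911.17, GRCh38 chr12:50979401-51028566), also called DMT1, the transporter that moves ferrous iron across the plasma and endosomal membranes, was the weakest of the 10 in control cells and differed between the lines. GM19193 went from 54 to 256 reads, which is 4.13 times the control on the spike-in scale (log2 2.05, exact 95% counting interval 1.62 to 2.50). GM18505 went from 40 to 21 reads (log2 -0.45, interval -1.29 to 0.35) and GM19204 from 53 to 26 (log2 -1.53, interval -2.27 to -0.83). Both libraries of GM19193 moved up, at 1.53 for T and 2.13 for U, and both libraries of each other line moved down. In the arsenite sample of GM19193 the reads were split unevenly, 41 in T and 215 in U, a ratio of 5.24 where the gene totals of those libraries had a ratio of 2.41.

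Over the 3 lines SLC11A2 was not called on the spike-in scale (log2 0.10, SE 0.45, adjusted p = 0.85), and without GM19193 it fell by 1.02 (adjusted p = 0.020). Without GM18505 and without GM19204 the value was 0.35 and 0.94, neither called (adjusted p = 0.73 and 0.10). In the TMM fit it was higher, by 2.02 (SE 0.47, adjusted p = 0.0077), at 1.44, 3.34 and 0.70 in GM18505, GM19193 and GM19204. Without GM19193 that value was 1.03 and no longer called (adjusted p = 0.052). SLC11A2 was 1 of 30 genes that were more than 4-fold higher in GM19193 and lower in both other lines, a pattern found for 0 genes with GM18505 and 3 with GM19204 as the line that rose. RNU6-87P, a small nuclear RNA copy, lies inside SLC11A2 on the same strand and is not a row of the table, and whether its reads enter the SLC11A2 count was not tested.

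**Figure D3:**
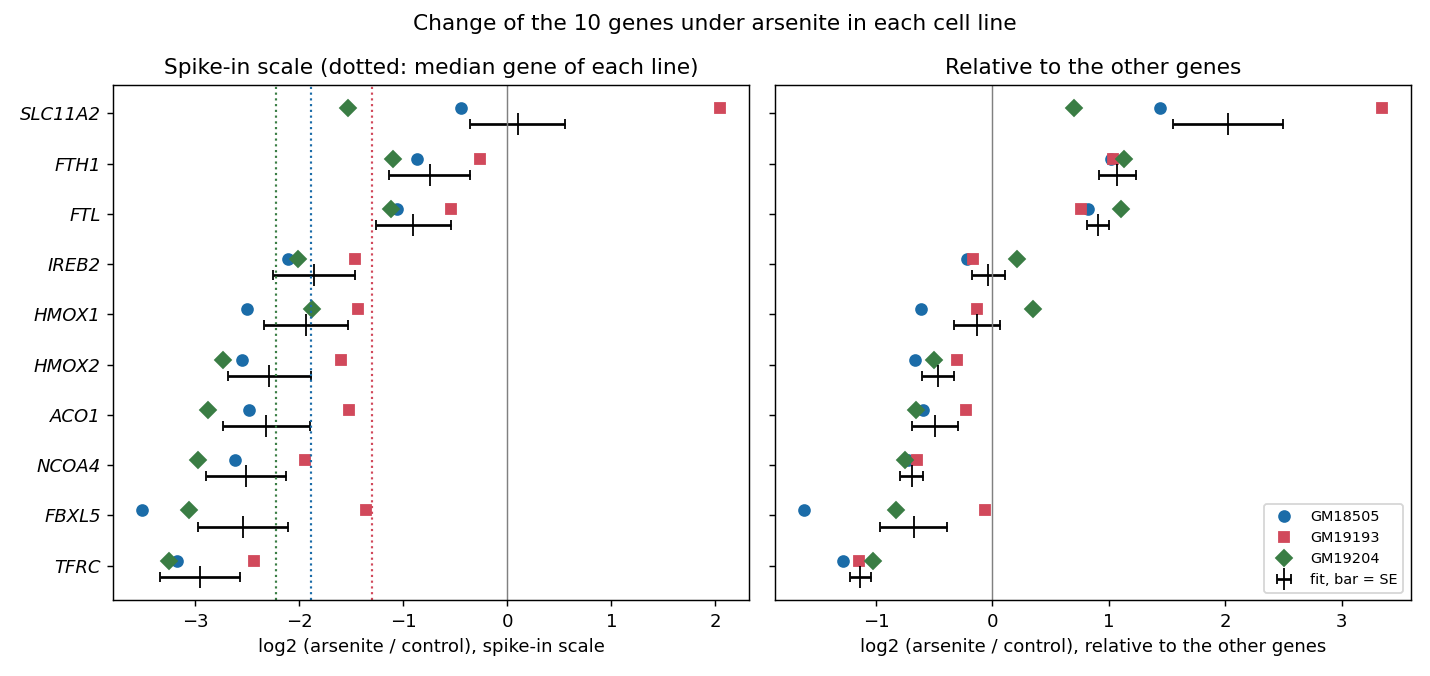
Log2 of arsenite over control for each gene and line on the spike-in scale (left, dotted lines at each line's median gene) and relative to the other genes (right), with the fitted value and its standard error in black. The 3 lines of FTH1, FTL, NCOA4 and TFRC sit close together on the right, from 0.76 to 1.13 for ferritin and from -1.28 to -0.65 for the other pair, while SLC11A2 spreads from 0.70 to 3.34.

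A ratio of counts within 1 sample needs no scaling between samples, and it showed both ferritin chains drawing apart from TFRC in every line. There were 0.122, 0.225 and 0.0646 FTL reads per TFRC read in the controls of GM18505, GM19193 and GM19204 and 0.525, 0.840 and 0.283 after arsenite. The ratio thus grew 4.31-fold, 3.74-fold and 4.37-fold. For FTH1 per TFRC read it grew 4.94-fold, 4.52-fold and 4.44-fold. Between the 2 ferritin chains, FTH1 per FTL read, the ratio changed by 1.15, 1.21 and 1.02 times. No test was run on these ratios.

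**Figure D4:**
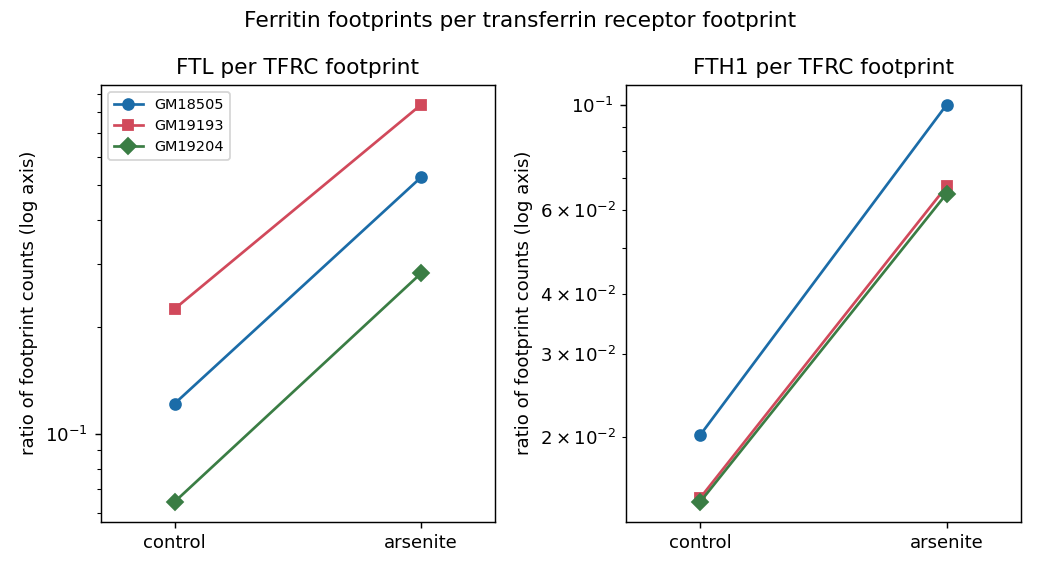
FTL reads (left) and FTH1 reads (right) per TFRC read in the control and arsenite sample of each line, on log axes with a scale of their own. All 6 lines of the plot climb in parallel, by 3.74 to 4.94 times, and for FTL the arsenite ratios (0.283 or more) lie above every control ratio (0.225 or less).

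The iron sensors fell about as far as the typical gene or further. ACO1 (ENSG00000122729.19, GRCh38 chr9:32384603-32454769), which is a cytosolic aconitase when it holds an iron-sulfur cluster and IRP1 when it does not, had spike-in scaled counts of 237, 89.0 and 225 in the controls of GM18505, GM19193 and GM19204 and 42.3, 31.0 and 30.5 after arsenite. GM19193 was the low line in the controls, and the conditions did not overlap. ACO1 fell by 2.32 on the log2 scale (SE 0.42, adjusted p = 1.2e-07). Relative to the other genes the log2 value was -0.49 (SE 0.20, adjusted p = 0.063), and without GM19193 it passed, at -0.64 (adjusted p = 0.037).

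IREB2 (ENSG00000136381.13, GRCh38 chr15:78437431-78501453), the iron regulatory protein that is controlled by degradation, was the steadiest of the 10 between control lines, at 58.9 to 61.2 CPM. Its spike-in scaled counts were 319, 357 and 427 in the controls and 74.1, 129 and 106 after arsenite, with no overlap. It fell by 1.86 on the log2 scale (SE 0.39, adjusted p = 5.1e-06), close to the median of all genes, and without GM18505 the call was lost at -1.74 (adjusted p = 0.059). Against the other genes it lay at -0.03 (SE 0.14, adjusted p = 0.85), a value whose sign turned with the filter on low counts (0.23 over the better-read genes).

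FBXL5 (ENSG00000118564.15, GRCh38 chr4:15604381-15681679), the iron-binding ubiquitin ligase subunit that marks IREB2 for degradation, varied most between lines among the genes that fell. Its spike-in scaled counts were 121, 167 and 196 in the controls and 10.6, 65.1 and 23.6 after arsenite, and the arsenite reads were only 9, 63 and 31. The conditions did not overlap, but the lines differed, with log2 fold changes of -3.51, -1.36 and -3.06. FBXL5 fell by 2.54 on the log2 scale (SE 0.43, adjusted p = 1.7e-08), and relative to the other genes the value was -0.68 (SE 0.29, adjusted p = 0.078). Without GM19193 that became -1.13 (adjusted p = 0.012), and it was -0.41 and -0.59, neither called (adjusted p = 0.27 and 0.20), without GM18505 and without GM19204. Of these 3 sensing genes 0 were called relative to the other genes by edgeR, and 2 of them, ACO1 and FBXL5, had an unadjusted p under 0.05. DESeq2 on the same samples called 0 of them. The limma fit on the 12 libraries, which counts T and U as separate replicates, called those 2 lower.

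Both heme oxygenases fell. HMOX1 (ENSG00000100292.18, GRCh38 chr22:35380361-35394214), the inducible enzyme, had spike-in scaled counts of 414, 198 and 182 in the controls of GM18505, GM19193 and GM19204 and 72.9, 73.3 and 49.5 after arsenite. GM18505 started at more than the other lines and ended level with GM19193, and no arsenite sample reached a control. HMOX1 fell by 1.94 on the log2 scale (SE 0.40, adjusted p = 3.8e-06). Relative to the other genes it was at -0.13 (SE 0.20, adjusted p = 0.59), with -0.62, -0.14 and 0.35 in the single lines, and the sign turned over the better-read genes (0.14) and without GM18505 (0.11). At 30 min HMOX1 footprints had therefore not risen in any of the 3 lines on the spike-in scale, where the log2 fold changes were -2.51, -1.43 and -1.88.

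HMOX2 (ENSG00000103415.12, GRCh38 chr16:4474690-4510347), the constitutive enzyme, had spike-in scaled counts of 449, 394 and 465 in the controls and 76.5, 130 and 70.1 after arsenite, with no overlap. It fell by 2.29 on the log2 scale (SE 0.40, adjusted p = 3.7e-08). In the TMM fit it was lower (log2 -0.47, SE 0.13, adjusted p = 0.018), and all lines gave a negative value, -0.66, -0.30 and -0.50. That call was lost without GM18505 (-0.39, adjusted p = 0.094), without GM19204 (-0.45, adjusted p = 0.067) and without the cell line term (-0.49, adjusted p = 0.068). It was also lost with DESeq2 (-0.47, adjusted p = 0.063), with the T (-0.51, adjusted p = 0.053) or U libraries alone (-0.40, adjusted p = 0.077) and, at -0.20 (adjusted p = 0.25), over the better-read genes. NMRAL1 overlaps HMOX2 on the opposite strand with a mean of 65.1 counts per library. Whether the counting used strand is not given in the sources used here.

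**Figure D5:**
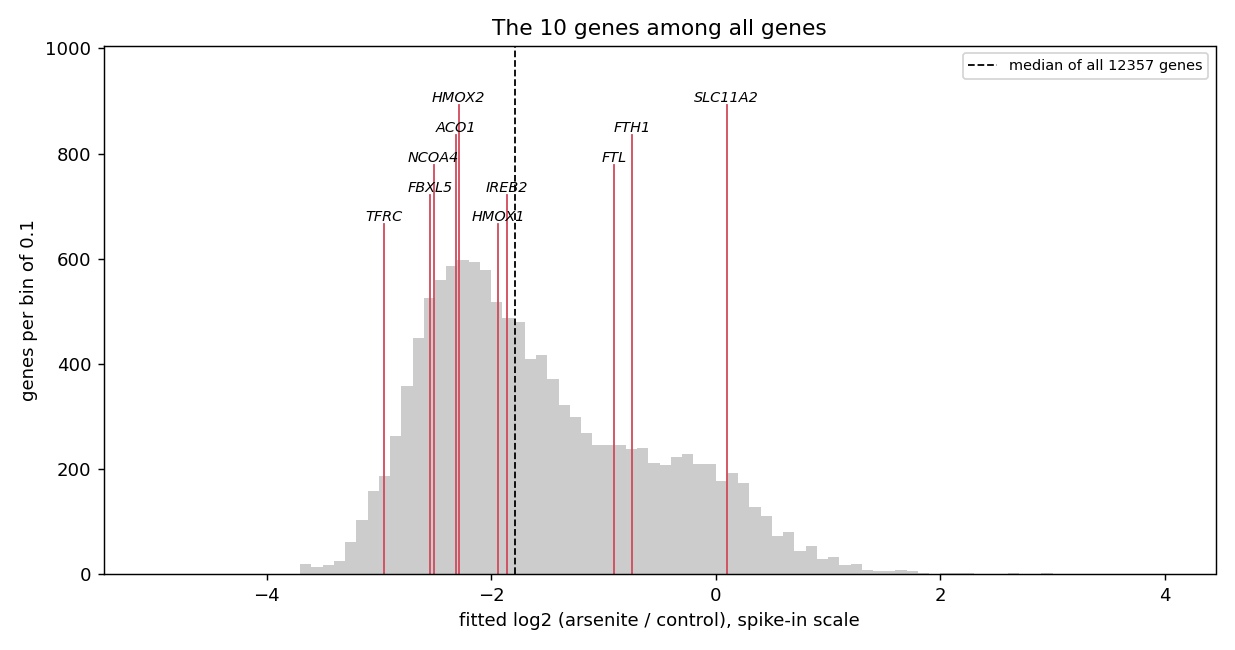
Histogram of the fitted log2 fold change of all 12357 genes on the spike-in scale (bins of 0.1), with the median (dashed, -1.78) and the 10 genes as labelled lines. TFRC (-2.96) lies in the lower tail, IREB2 and HMOX1 next to the median, and FTL (-0.91), FTH1 (-0.75) and SLC11A2 (0.10) in the upper part.

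Levels of different genes were compared as CPM per kilobase of coding length, on the mean of 3 lines. In control cells the order was TFRC at 604 ± 71.6 (SD, n = 3), FTL at 345 ± 167, HMOX2 at 76.0 ± 11.5, NCOA4 at 74.4 ± 4.46, HMOX1 at 52.8 ± 32.8 and FTH1 at 42.0 ± 11.9. IREB2 followed at 20.8 ± 0.41, FBXL5 at 12.6 ± 1.43, ACO1 at 11.4 ± 5.66 and SLC11A2 at 4.98 ± 1.25. The lines overlapped between neighbours from HMOX2 to FTH1 and from FBXL5 to SLC11A2, while TFRC lay above FTL in every line, and IREB2 lay apart from both of its neighbours. After arsenite FTL came first at 576 ± 263, then TFRC at 246 ± 14.1 and FTH1 at 79.3 ± 20.7, and FTL was above TFRC in every line. FTH1 moved up from the sixth place to the third although its spike-in scaled counts were lower than in control cells. Coding length does not correct for the copies elsewhere in the genome, so that FTH1, FTL and NCOA4 are placed too low on this scale by an unknown amount.

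Around the 10 genes, 6 lists of iron genes held 71 genes of the table, of which 56 fell and 3 rose on the spike-in scale, with a median of -2.25, where 74.1% and 1.12% of all genes fell and rose. For this median and those of the single lists below, the better-read genes had a median of -2.10, averaged over lines. The shares of genes called, here and below, are over all genes and not over the better-read ones. Whether the list counts differ from them through read depth was not tested. Relative to the other genes 14 were higher and 32 lower (median -0.43, beside 0.03 over all genes), where 27.8% and 26.6% of all genes were called higher and lower. Among other mRNAs with a described IRE, 3 of 6 were in the table. SLC40A1 had between 7 and 26 reads a sample, and as few as 1 in a library. It was at 0.41 on the spike-in scale (adjusted p = 0.43) and higher relative to the other genes (2.19, adjusted p = 0.0062). On the spike-in scale its T and U libraries disagreed in direction in GM18505 (1.38 and -2.59) and in GM19193 (1.26 and -0.41). Both were up in GM19204 (3.33 and 0.32). CDC42BPA, a kinase in whose 15 transcripts the hairpin letters were not found, rose by 1.82 in the fit (adjusted p = 0.0018), yet only in GM19193, from 42 to 2024 reads, against 20 to 10 in GM18505 and 17 to 16 in GM19204. Without GM19193 its value was -0.55 (adjusted p = 0.32), and it was 2.85 and 3.23, both called (adjusted p = 0.038 and 4.8e-05), without GM18505 and without GM19204.

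Iron transport and chaperone genes split, with 7 of 17 lower, 1 higher and 9 not called on the spike-in scale, beside 74.1% of all genes that fell. The 9 not called had few reads, between 2 and 83 a sample, and whether the split follows read depth was not tested. PCBP1 and PCBP2, RNA-binding proteins that also deliver iron to ferritin, fell by 3.45 and 3.58 on the log2 scale (adjusted p = 2.3e-15 and 7.8e-16), ranks 39 and 26 from the lowest of all genes. SLC25A28, mitoferrin 2, which carries iron into mitochondria, rose in all 3 lines (1.10 in the fit), to 1.95, 1.63 and 3.12 times control, and was named after its values were seen. That call was lost without GM18505 (1.17, adjusted p = 0.21) and without GM19204 (0.83, adjusted p = 0.12). Of the heme synthesis genes 11 of 12 fell, beside 74.1% of all genes, with a median of -2.57, and 7 were lower and 1 higher relative to the other genes. Among them were FECH, which inserts iron to form heme (-3.20), the transporter TSPO (-3.11) and CPOX (-2.63). ALAS1, the first enzyme outside the erythroid lineage, was at -2.50. PPOX was the 1 gene not called (-0.78, named after its values were seen).

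All 24 iron-sulfur cluster assembly genes in the table fell (median -2.50), beside 74.1% of all genes, with NFU1 at -3.23, GLRX5 at -3.13, HSPA9 at -2.77 and CIAO2B at -2.63, and 15 of them were lower and 2 higher relative to the other genes, beside 26.6% and 27.8% of all genes. Of the partners and regulators of heme oxygenase 8 of 10 fell, again beside 74.1% of all genes, including POR, the reductase that feeds electrons to heme oxygenase (-2.58), and CUL3 (-2.75). MAFF, a small MAF partner of NRF2 and BACH1, rose by 1.58 (adjusted p = 2.3e-04), to 2.95, 2.27 and 4.03 times control in GM18505, GM19193 and GM19204. BACH1, named after its values were seen, was not called on the spike-in scale (-0.79) and was higher relative to the other genes (1.02). All 5 ligase genes acting on iron regulators fell, where 74.1% of all genes did, among them CUL1 (-2.90) and SKP1 (-2.17).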

How the data were processed

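The deposited tables hold raw counts, of footprints mapped to a single place per gene and of reads per spike-in oligomer. The authors removed ribosomal, transfer and small nucleolar RNA reads, mapped the rest to GRCh38 with TopHat2 (up to 2 mismatches) and counted genes with featureCounts of Subread, keeping genes read at least once in all 12 libraries. The sources used here do not give the tool versions. Conditions and cell lines came from the sample labels, spike-in pools and treatment time from the study's methods.

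T and U libraries were summed. edgeR 4.0.16 (R 4.3.3) fitted treatment and cell line over all 12357 genes, once with library sizes from the spike-in scale (the mean of log2 count less log2 nominal amount over 7 oligomers) and once with TMM, with 2-sided quasi-likelihood tests and Benjamini-Hochberg adjustment over all genes. Samples of 1 line deviated together from their group means (correlations 0.70, 0.64 and 0.64 over 8265 genes). The source of these shared deviations was not tested. DESeq2 1.42.0, limma 3.58.1 (log2 values with 0.25 added), other scalings, filters, single libraries and left-out lines were alternatives. Beside the spike-in fit, limma used the counts of the 12 libraries with no scaling, and beside the TMM fit it used TMM values. The fits were also run on simulated counts with no differences between lines and a known scale. Those runs do not cover the error of the spike-in scale or the spread between lines. SE is the fold change divided by the root of the test statistic. Symbols and positions came from GENCODE release 44. Copies were counted as exact matches of coding windows to the primary chromosomes. The counting intervals are exact conditional ones and cover counting error only, since the reads carry no molecular identifiers used here. The members and the gene lists were chosen with earlier results of these data known. The genes named are the 10 members, the 2 with the smallest p in either fit from each other list, and the described IRE genes in the table, of which 1 is not reported here; others are marked.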

Additional observations from a re-analysis of the deposited data

Results flagged for a closer look

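The response of SLC11A2 differed between cell lines: both libraries of GM19193 were higher after arsenite and both libraries of GM18505 and of GM19204 were lower on the spike-in scale. GM18505 less GM19193 came to -2.50 in log2 fold change, and GM19193 less GM19204 to 3.58. These differences were not tested, since each line has 1 culture per condition. Of all genes, 341 (2.76%) showed the same pattern with GM19193 as the line that rose.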

How the results depend on the processing

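Of 150 fold changes of the members recomputed under 15 alternatives to the main spike-in fit, 129 kept their direction and their side of the threshold. Among these alternatives, limma and an edgeR fit used counts with no scaling. Of 120 fold changes relative to the other genes under 12 alternatives, 96 kept both. Scaling by the total spike-in count called 0 of the 10 genes instead of 8, with TFRC at -3.40 (adjusted p = 0.73). The number that fell ranged from 6 to 10 with 1 line left out, and the number lower relative to the other genes from 2 to 5, where the main value is 3. That number was also 5 with limma on the 12 libraries and 5 with the 12 libraries kept separate, where ACO1 and FBXL5 passed. Both of these fits count T and U of 1 culture as separate replicates, so their p-values overstate the replication. The number that rose stayed 0 and the number higher was 2 to 3 with 1 line left out. On the spike-in scale SLC11A2 turned negative with DESeq2 (-0.014), the T libraries alone (-0.12) and without 1 line (from -1.02 to 0.94). It was also negative with the total spike-in count (-0.81) and with limma on unscaled counts (-0.056). Relative to the other genes IREB2 turned positive when genes under a mean count of 10 (0.016) or 50 (0.23) were dropped and with the U libraries alone (0.12), and ranged from -0.17 to 0.036 with 1 line left out. HMOX1 turned positive when genes under a mean count of 50 were dropped (0.14) and with the T libraries alone (0.0048), and ranged from -0.36 to 0.11 with 1 line left out. Dropping genes under a mean count of 50 moves the median change of all genes on the spike-in scale, averaged over lines, from -1.80 to -2.10. Without the cell line block 7 genes fell and 2 were lower and 2 higher relative to the other genes, the lost calls being those of FTL in both fits and HMOX2 relative to the other genes. With G and T pairs not allowed, 0.229% of canonical transcripts held a hairpin, and those of FTH1 and FTL and 1 of the 4 of TFRC were not among them. Where not stated otherwise, the cause of a change was not tested. Depth limits FBXL5, SLC11A2 and ACO1 most, with as few as 9, 21 and 30 reads in an arsenite sample.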
